A study of Danio rerio with 6 samples.

Results

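The genes described here build, bind and cut the extracellular matrix of the zebrafish brain: collagens, laminins, fibronectins, fibulins, proteoglycans with their link proteins, tenascins, integrins, matrix proteases and a protease inhibitor. Members were taken by the letters that begin their gene symbols, a rule that uses no measured value, though the group was picked with earlier results of these data known. The rule found 73 of 38489 array targets, under 55 symbols, a target being a transcript covered by up to 3 probes. Of these, 68 targets under 52 symbols name a matrix gene or an integrin. The other 5 targets, under the 3 symbols itgb4bp4, tnrc4 and tnrc5, were caught by their letters only and are described last. Symbols are those of the array files, and some are older names: fn1 is now fn1a, col1a1 is col1a1a, col1a3 is col1a1b, col5a2l is col5a2a, itga11 is itga11a, tnc is tncb, timp2 is timp2a and sparcl is sparcl1.

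Each of the 6 arrays held RNA of 1 whole brain from a female AB strain zebrafish aged 12 months. The 3 lead fish had been held as embryos in 100 ppb lead acetate, from before 2 until 72 hours after fertilization, and were then washed and raised without lead. The 3 control fish had 0 ppb over the same hours, and the labels name no transgene or mutation in either group. The comparison asks whether lead in early development is followed by altered gene expression in the aged female brain.

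Brain matrix is of more than 1 kind. Fibroblasts of the meninges and cells around large vessels lay down fibrillar collagens, fibronectin and small leucine-rich proteoglycans such as decorin. The neural tissue itself is nearly free of collagen fibres and holds a net of hyaluronan, bound by lecticans (neurocan, versican, brevican), fastened by link proteins (the hapln genes) and cross-linked by tenascins. This net is dense around some neurons and at the nodes of axons. Basement membranes of laminin and type IV collagen lie between these compartments, integrins are the paired receptors by which cells hold both kinds of matrix, and metalloproteinases and their tissue inhibitors govern its turnover.

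Values are log2 target intensities. A difference is lead minus control, printed ± its standard error, and rests on 3 brains in each group unless a brain is said to be left out. A level of 1 gene cannot be set against that of another on these arrays. A target was taken as above background where it exceeded the 95th percentile of the random probes on its array, which lay between 9.89 and 10.36 on the log2 scale. Of the 68 matrix targets 38 were above it on all 6 arrays, where 55.8% of all targets were, and 17 were above it on none, where 29.9% of all targets were. All 5 measured genes of a list of 12 brain markers were above it on every array.

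One library stood apart. Control replicate 1 gave the highest value of the 6 arrays for 26 of the 52 matrix genes (34 of 68 targets), where it did so for 20.4% of all targets. It lay more than 2-fold above the next highest array for 6 of 68 matrix targets, where this held for 0.720% of all targets. By brightest target this was 4 of the 52 genes. Among the 38 matrix targets above background on every array it held for 1. Summed intensities of markers of other tissues were also high in control replicate 1. The 10 measured pituitary markers summed to 94796 there against 11492 to 20878 in the other 5 brains. The 6 measured markers of meninges and mural cells summed to 31217 against 16835 to 24571. Of these 5 were highest in control replicate 1, and aldh1a2 was highest in lead 1. The marker pdgfra was under background on every array, and tbx18 was above it in control 1 alone. These markers were likewise named after their values were seen. The 11 measured cartilage and otic capsule markers summed to 34020 against 11245 to 17145, but only 5 of the 11 were highest in this brain, and their median deviation from the mean of the 6 arrays was 0.21 there and 0.14 in lead 1. Of the 10 pituitary markers 7 were highest in control replicate 1, and growth hormone (gh1) was above background there and in no other brain. The markers prl, pomcb and pitx3 were highest in lead 3, control 3 and lead 1. These genes were named after their values were seen. The 5 measured endothelial markers summed to 30894 against 16087 to 19516, and the 7 of skin and epithelium to 67100 against 28537 to 45558. The part of these other tissues in the results was not tested, and the differences of the matrix genes and the medians of their lists are given below with and without this brain.

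No matrix gene differed between lead and control after adjustment. By limma's moderated test on all 38489 targets, 0 matrix targets and 0.00% of all targets passed an adjusted threshold of 0.05. The lowest adjusted p of a matrix target was 0.958. At an unadjusted p under 0.05 there were 2 of 68 matrix targets (3 of the 73 that met the rule), against 4.41% of all targets. Of these lama1 was higher in lead, as 2.57% of all targets were at that level, and itga2b lower, as 1.83% were. The ordinary test without moderation gave 3 of 68 at that level, against 4.30% of all targets, and 0 after adjustment, and without control replicate 1 limma gave 3 of the 73, against 3.72% of all targets. Counts of this size lie near the background and say nothing particular about matrix genes. The median standard error of a matrix difference was 0.23, against 0.18 over all targets.

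Direction over the whole list depended on 1 brain. The lead mean lay below the control mean for 33 of 52 matrix genes and 44 of 68 targets, against 49.5% of all targets, and the median over the 52 genes was -0.14 against 0.00 over all targets. Without control replicate 1 the lead mean lay above the control mean for 35 of the 52 genes, against 52.0% of all targets, and the median was 0.13. The map of deviations by brain shows the column that carried this.

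**Figure D1:**
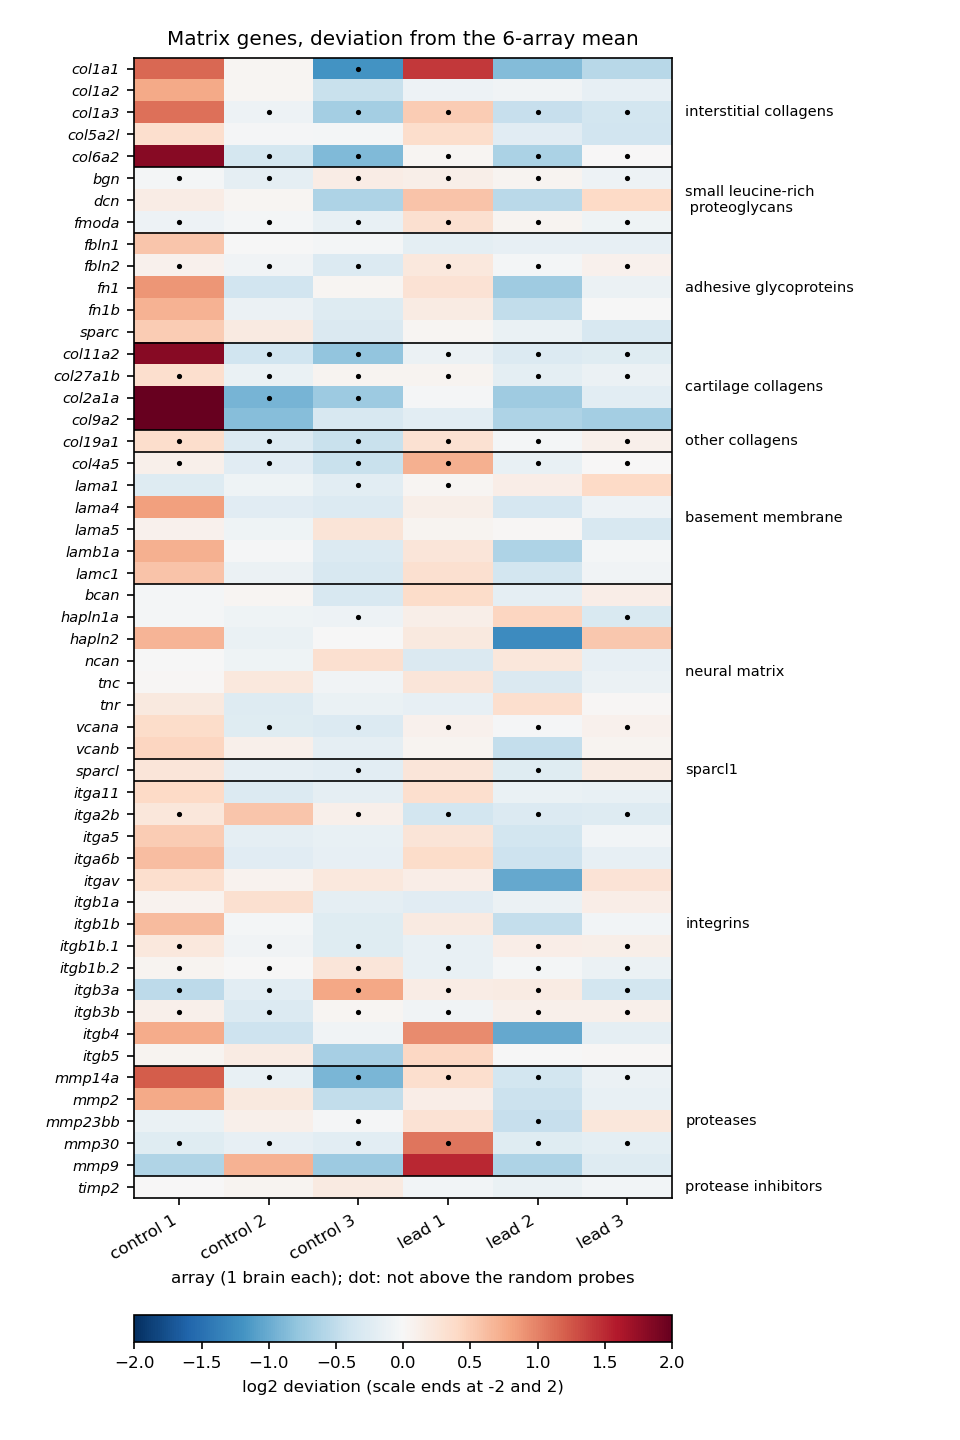
Each row is 1 of the 52 matrix genes by its brightest target, each column 1 brain, and the colour is the log2 deviation of that brain from the gene's mean over the 6 arrays, on a scale that ends at -2 and 2. Dots mark values not above the random probes. The darkest red cells, for col2a1a, col9a2, col11a2 and col6a2, stand in control 1.

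The interstitial collagens, which form or coat the fibres of meninges and connective tissue, lay at 0.00 or lower in lead for 5 of 5 genes, with a median of -0.22, and the median without control replicate 1 was 0.28. Only 2 of the 5 were above background on every array. Both medians are the values of col1a3, named here after its values were seen, which was above background in control 1 alone. The main chain of type I collagen, col1a1, measured 12.26, 11.15 and 9.91 in controls 1 to 3 and 12.52, 10.24 and 10.55 in lead brains 1 to 3. Replicate 1 was the high brain in each group, the groups overlapped fully, and the difference was 0.00 ± 0.76 (limma adjusted p = 1.000), with a 95% interval from -1.79 to 1.79. It was 0.58 without control 1 and -0.71 without lead 1, so that its direction rested on these brains. This target rests on 2 probes, both highest in lead 1. Its partner chain col1a2 measured 11.64, 10.92 and 10.45 in controls and 10.78, 10.82 and 10.72 in lead brains. The lead brains were close together within the spread of the controls, and the difference was -0.23 ± 0.29 with all arrays and 0.09 without control 1. Its 3 probes did not go the same way, differing by between -0.15 and 0.51, and the median of the probes gave 0.51.

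Fibre-regulating type V collagen (col5a2l) measured 10.94, 10.58 and 10.56 in controls and 10.95, 10.38 and 10.22 in lead brains, so that replicate 1 of each group was again the highest. Its difference was -0.17 ± 0.22, and -0.05 without control 1. Type VI collagen, which forms beaded filaments beside the fibres, showed the control 1 value most plainly. The brighter of 2 targets of col6a2, named here after its values were seen, measured 10.99 in control 1 and 8.29 to 9.21 in the other 5 brains, all of them under background. The other target measured 10.37 in control 1 and 7.96 to 8.33 elsewhere, again under background. Differences were -0.39 ± 0.66 and -0.79 ± 0.57, and 0.42 and -0.06 without control 1.

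Small leucine-rich proteoglycans bind collagen fibres and set their width. All 3 measured genes lay higher in lead, with a median of 0.20 (0.19 without control 1). However, bgn and fmoda, named here after their values were seen, were under background on every array. The median is the value of fmoda. With each target taken as the median of its probes the list's median was -0.23, so its direction is not settled. Decorin (dcn) measured 14.35, 14.23 and 13.57 in controls and 14.76, 13.66 and 14.60 in lead brains. Lead 1 and lead 3 were above every control while lead 2 lay near the lowest control, and the difference was 0.29 ± 0.34 (limma adjusted p = 0.959). All 3 of its probes lay higher in lead, by 0.25 to 0.43. The difference was 0.44 without control 1, 0.08 without lead 1 and 0.05 without control 3. Without lead replicate 2 it was 0.63, at an unadjusted p of 0.054 in the limma fit to those arrays. Control 1 was not high for decorin, at 1.14-fold over the other 5 brains, unlike its position for col6a2.

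Among adhesive and matricellular glycoproteins 4 of 5 genes lay lower in lead, with a median of -0.27 that was -0.01 without control replicate 1. Fibulin 1 (fbln1), a protein of elastic fibres and basement membranes, measured 11.97, 11.40 and 11.38 in controls and 11.22, 11.25 and 11.25 in lead brains. Its groups did not overlap and its lead values were almost equal, yet the difference of -0.34 ± 0.18 missed the threshold (unadjusted p = 0.106, limma adjusted p = 0.958). Only 2 of its 3 probes lay lower in lead, the probe differences ran from -0.46 to 0.62, and without control 1 the target difference was -0.15. The fibronectin genes fn1 and fn1b, whose protein links integrins to collagen, were highest in control 1 and lowest in lead 2. For fn1 the values were 12.02, 10.76 and 11.17 in controls and 11.43, 10.42 and 11.02 in lead brains. For fn1b they were 13.05, 12.24 and 12.10 against 12.51, 11.86 and 12.35. The groups overlapped for both genes, and their differences of -0.36 ± 0.38 and -0.22 ± 0.29 became -0.01 and 0.07 without control 1.

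Osteonectin (sparc), a collagen-binding protein, had 4 targets of which only 1 was above background. That target measured 14.17, 13.85 and 13.38 in controls and 13.71, 13.54 and 13.35 in lead brains, overlapping, with a difference of -0.27 ± 0.22 that was -0.08 without control 1. Its relative sparcl, known as hevin and made by astroglia in mammals, measured 10.53, 10.12 and 10.08 in controls and 10.53, 10.05 and 10.45 in lead brains. It lay close to background and was above it on 4 of the 6 arrays, and its difference was 0.10 ± 0.19, or 0.24 without control 1.

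Collagens of cartilage and of the sheaths around it showed the widest spread of any role list, a median range of 3.06 over the 6 brains against 0.61 over all targets. All 4 genes lay lower in lead (median -0.52) and 3 of 4 lay higher in lead once control replicate 1 was left out (median 0.23). Only 1 of the 4 was above background on every array. By its brighter target col11a2 was above it in control 1 alone, and col27a1b was above it in no brain. Both were named after their values were seen, and their directions without control 1 rest on values under background. The fibrillar chain of cartilage, col2a1a, measured 13.39 in control 1, 9.87 and 10.07 in the other controls, and 10.78, 10.09 and 10.58 in lead brains. Control 1 was far above every other brain, and the other controls lay under background. The difference was -0.62 ± 0.89 (limma adjusted p = 0.965) with all arrays, and 0.52 ± 0.23 without control 1 at an unadjusted p of 0.0683. The fibre-coating chain col9a2 measured 13.63, 10.12 and 10.64 in controls and 10.76, 10.35 and 10.29 in lead brains. Control 1 was 9.17-fold over the others on a target above background in every brain, and the difference of -1.0 ± 0.85 became 0.09 ± 0.23 without it. All 3 probes of col2a1a, of col9a2 and of both col11a2 targets were highest in control 1. Markers of cartilage and otic capsule outside the symbol rule were divided. Epiphycan (epyc), a cartilage proteoglycan, measured 13.52 in control 1 and 10.47 to 10.79 elsewhere, and otomp, a protein of the otolith matrix of the ear, 12.89 and 10.58 to 10.94. The cartilage matrilin matn1 was instead lowest in control 1, at 10.31 against 10.46 to 11.19, and the bone protein gene bglap highest in lead 1. These markers were named after their values were seen, and the part of such tissue in the collagen values was not tested.

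**Figure D2:**
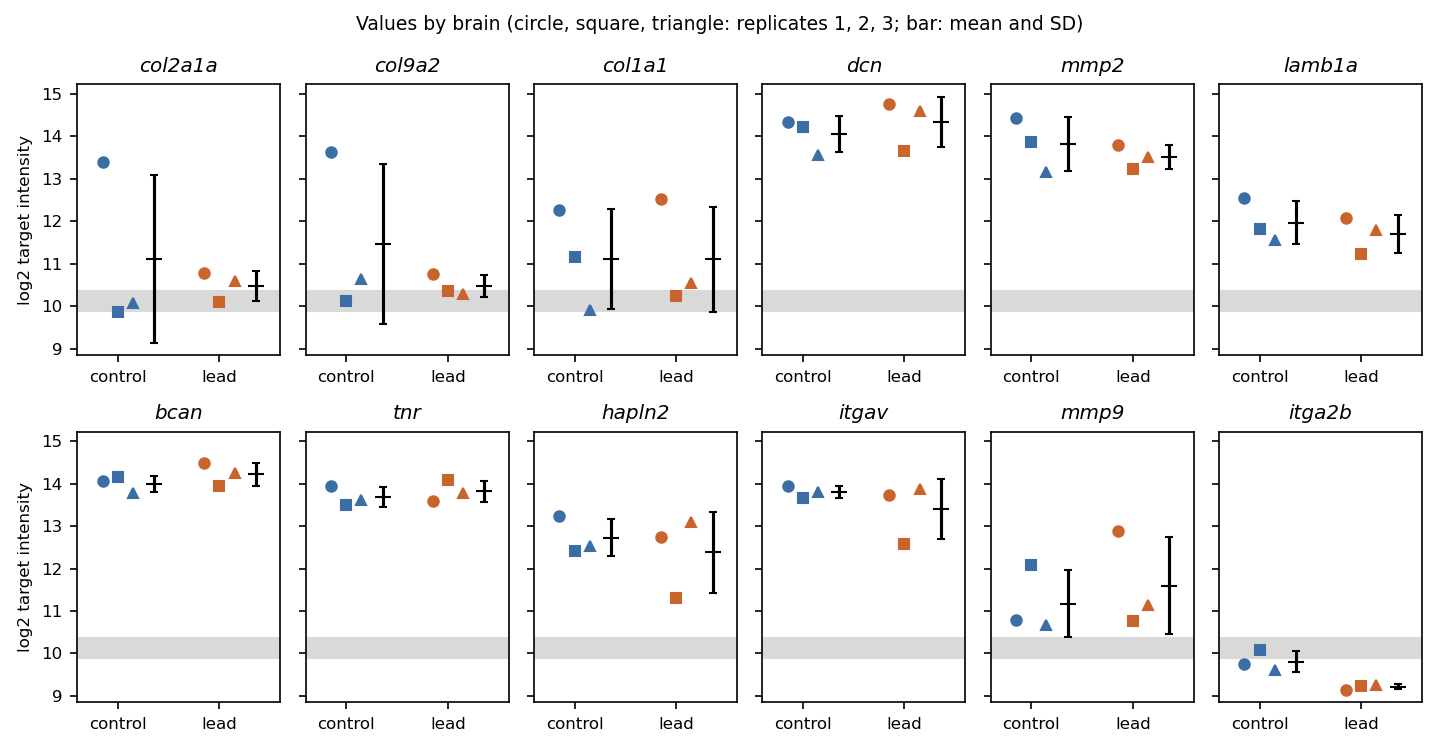
Log2 target intensity (vertical axis) of 12 matrix genes in the 3 control and 3 lead brains, with circle, square and triangle for replicates 1, 2 and 3, bars for the group mean and SD, and a grey band for the range of the random-probe background over the 6 arrays. Levels are not compared between panels; col2a1a and col9a2 have 1 high control, hapln2 and itgav 1 low lead brain, and the groups overlap in every panel except itga2b.

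Laminins are the heterotrimeric proteins on which basement membranes are assembled, here those of vessels and of the brain surface. Of 6 basement membrane genes 4 lay lower in lead, with a median of -0.13. That median was 0.16 without control replicate 1 and 0.03 without lead 2. The laminin chain of brain vessels lama4 was carried by 4 targets, all above background, and all highest in control 1 on every probe. Its brightest target measured 13.28, 12.23 and 12.19 in controls and 12.57, 12.12 and 12.35 in lead brains. The groups overlapped, and the 4 targets differed by between -0.22 and -0.08. Without control 1 all 4 lay higher in lead, by 0.07 to 0.33. The partner chains behaved alike. The beta chain lamb1a measured 12.54, 11.81 and 11.56 in controls and 12.08, 11.22 and 11.80 in lead brains, and the gamma chain lamc1 13.45, 12.76 and 12.57 against 13.20, 12.52 and 12.81. In both, control 1 was the highest brain on all 3 probes and lead 2 the lowest of the 6. Differences were -0.27 ± 0.32 and -0.08 ± 0.28, and 0.02 and 0.18 without control 1.

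The alpha chains lama1 and lama5 did not follow control 1. The alpha chain lama1, which in the zebrafish embryo is needed for eye and notochord, is a target on a scaffold not placed on a chromosome. It measured 9.98, 10.16 and 10.02 in controls and 10.27, 10.37 and 10.63 in lead brains. Every lead value lay above every control value, and all 3 probes lay higher in lead, by 0.05 to 0.49. The difference was 0.37 ± 0.14, at an unadjusted p of 0.0372 and a limma adjusted p of 0.958, and it lay between 0.27 and 0.44 when each brain in turn was left out. The unadjusted p rose above 0.05 without control 1 (limma, 0.0933), without 3 of the other 5 brains and with the replicate number as a block (0.0532). The median of the probes gave a difference of 0.05 (limma, unadjusted p = 0.825). The values were close to background, above it in 2 controls and 2 lead brains. The chain lama5, by contrast, measured 11.77, 11.61 and 11.95 in controls and 11.74, 11.71 and 11.37 in lead brains, overlapping, with a difference of -0.17 ± 0.16, or -0.18 without control 1.

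The neural matrix genes had no common direction. Over the 8 genes 4 lay higher and 4 lower in lead, the median difference was -0.01, and without control replicate 1 it was 0.05. Over those above background on every array the median was -0.13. The median range over the 6 brains was 0.67, near the 0.61 of all targets. Groups that did not overlap were found for 0 of the 14 targets, near the 9.49% of all targets that had them. Brevican (bcan), the lectican most abundant in adult mammalian brain, measured 14.07, 14.15 and 13.79 in controls and 14.48, 13.94 and 14.25 in lead brains. The groups overlapped because of lead 2, and the difference was 0.22 ± 0.18 (limma adjusted p = 0.958), or 0.25 without control 1 and 0.09 without lead 1. Tenascin R (tnr), made by oligodendrocytes and a cross-linker of perineuronal nets, measured 13.95, 13.50 and 13.62 in controls and 13.59, 14.09 and 13.77 in lead brains. Here lead 2 was the highest brain, and the difference was 0.13 ± 0.19, or 0.26 without control 1 and -0.01 without lead 2. Neurocan (ncan), named here after its values were seen, had 2 targets with differences of -0.15 ± 0.19 and -0.11 ± 0.18, and tenascin C (tnc), likewise, -0.11 ± 0.17 and -0.06 ± 0.18. Without control 1 these were -0.19 and -0.19 for ncan and -0.13 and 0.02 for tnc. The hyaluronan link protein hapln1a was above background on 4 arrays by its brighter target, at 10.29, 10.24 and 10.23 in controls and 10.45, 10.76 and 10.02 in lead brains. Its difference was 0.16 ± 0.20, with 0.18 without control 1 and -0.02 without lead 2.

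Lead replicate 2 was the low brain for part of this group. The link protein of nodes of Ranvier hapln2 measured 13.23, 12.42 and 12.54 in controls and 12.75, 11.30 and 13.09 in lead brains. Lead 2 was lowest on all 3 probes, and the other 5 brains averaged 2.84-fold over it. The difference was -0.35 ± 0.47 with all arrays, -0.10 without control 1 and 0.19 ± 0.28 without lead 2. All 3 targets of versican b (vcanb), a large lectican of the hyaluronan net, were also lowest in lead 2, on all 9 probes. The brightest measured 13.75, 13.42 and 13.13 in controls and 13.37, 12.84 and 13.37 in lead brains, with a difference of -0.24 ± 0.22 that was -0.08 without control 1 and -0.06 without lead 2, and the 3 targets differed by between -0.25 and -0.10. On the Zv7 assembly the hapln2 target (chr16:20456052-20461994) lies 260 bases beyond the end of the bcan target (chr16:20431292-20455792). Lead 2 was the lowest brain for hapln2 but not for its neighbour bcan, whose lowest value was in control 3.

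Set against each other brain by brain, the meningeal genes varied more than the neural ones, with a median range of 1.19 over the 6 brains against 0.67. Over all 52 matrix genes the median range was 0.91, so the neural list was narrower than the matrix genes as a whole. Of the meningeal genes 7 of 13 were above background on every array, and of the neural genes 6 of 8. Each gene was taken as its deviation from its own mean over the 6 brains. The median over 13 meningeal genes (interstitial collagens, small leucine-rich proteoglycans and adhesive glycoproteins) was 0.56, -0.03 and -0.28 in controls 1 to 3 and 0.21, -0.22 and -0.11 in lead brains 1 to 3. The median over 8 neural genes was 0.11, -0.09 and -0.12 in controls and 0.10, -0.10 and 0.04 in lead brains. Meningeal minus neural was therefore 0.45, 0.06 and -0.16 in controls and 0.11, -0.13 and -0.15 in lead brains. Control 1 had the highest value, control 3 the lowest, and the lead brains lay between them. The median difference of the 13 meningeal genes was -0.22, and 0.09 without control 1. Over those above background on every array it was -0.23, where the neural median was -0.13. For meningeal minus neural the lead mean was 0.17 below the control mean (lead minus control -0.17), and this was between -0.25 and -0.03 when each brain in turn was left out, nearest 0 without control 1. The members were chosen with results known, so no test was made of it. In whole brains, fewer cells of a type and less RNA per cell cannot be told apart.

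**Figure D3:**
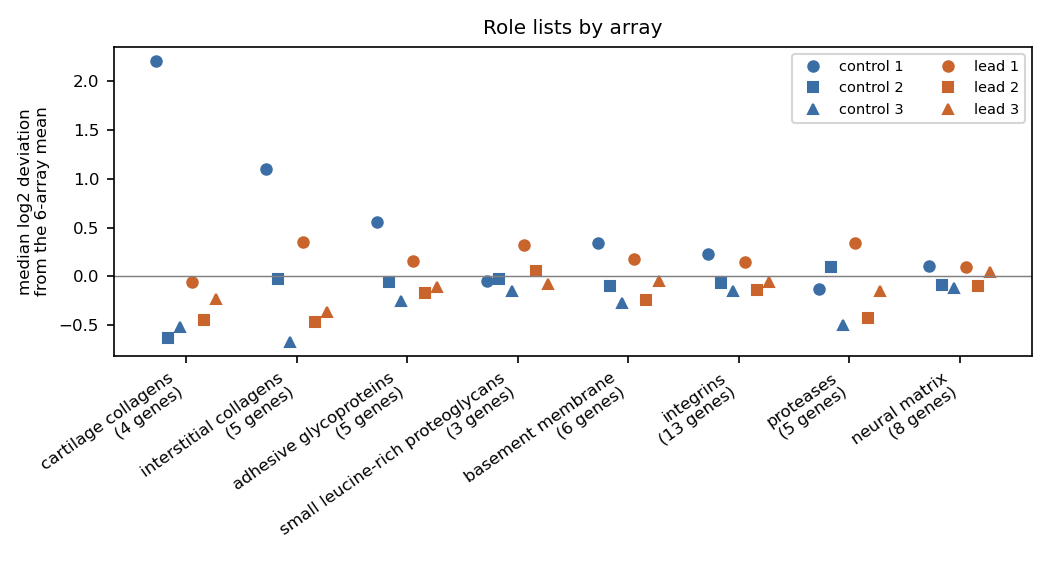
Median log2 deviation from the 6-array mean (vertical axis) over the genes of each role list, for each of the 6 brains, controls in blue and lead in orange. Control 1 lies at 2.21 for cartilage collagens and 1.10 for interstitial collagens, and at 0.11 for the neural matrix, where all 6 brains lie between -0.12 and 0.11.

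Integrins, the paired alpha and beta receptors of the matrix, lay lower in lead for 9 of 13 genes, with a median of -0.14. That median was 0.10 without control replicate 1 and 0.01 without lead 2. The only integrin, and the only matrix gene of any kind, in the authors' deposited table of 94 altered targets was itga2b, the alpha chain of the fibrinogen receptor of platelets and of their fish counterparts, the thrombocytes. Its target (Zv7, chr3:18477761-18509646) measured 9.74, 10.07 and 9.61 in controls and 9.14, 9.24 and 9.25 in lead brains. The groups did not overlap and all 3 probes lay lower in lead, with probe differences of -0.60 to -0.39. The difference was -0.59 ± 0.15, at an unadjusted p of 0.00647 and a limma adjusted p of 0.958, and it lay between -0.69 and -0.46 when each brain in turn was left out, -0.63 without control 1. With the median of the probes it was -0.39, at a limma unadjusted p of 0.107. The authors' deposited table gives a log2 ratio of -0.59, a signed fold of -1.508 and a p-value of 0.0135 for it. Only control 2 was above background for this target. The other controls and all 3 lead brains were under it, so no fold beyond that of the authors is given for itga2b. Its partner chains itgb3a and itgb3b, named here after their values were seen, were under background on every array. Their differences were -0.04 ± 0.35 and 0.09 ± 0.15 (-0.30 and 0.16 without control 1). Markers of red cells, another class of blood cells, summed lower in every lead brain than in any control. Their 6 measured genes summed to 95880, 91607 and 98762 in controls and 85942, 44010 and 55121 in lead brains. At a limma unadjusted p under 0.05, 4 of the 6 were lower in lead, as 1.83% of all targets were. The part of blood content in the itga2b difference was not tested.

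Other integrins followed single brains. The alpha chain itgav, a receptor for fibronectin and vitronectin, measured 13.94, 13.67 and 13.81 in controls and 13.74, 12.58 and 13.87 in lead brains. Lead 2 alone was low, on all 3 probes, and the other 5 brains averaged 2.34-fold over it. The difference was -0.41 ± 0.34, -0.34 without control 1 and 0.00 ± 0.15 without lead 2. The beta chain of epithelial hemidesmosomes itgb4 measured 12.59, 11.42 and 11.77 in controls and 12.78, 10.82 and 11.66 in lead brains. Replicate 1 was high in each group and lead 2 was lowest, and the difference of -0.18 ± 0.52 became 0.29 without lead 2 and 0.15 without control 1. The brighter of 2 targets of itgb5, another vitronectin receptor chain, measured 13.40, 13.50 and 12.68 in controls and 13.76, 13.34 and 13.37 in lead brains. Only control 3 was low, and the difference was 0.29 ± 0.25, or 0.39 without control 1.

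The beta 1 chain pairs with many alpha chains, among them those that bind collagen, laminin and fibronectin. The gene itgb1b measured 13.01, 12.34 and 12.14 in controls and 12.56, 11.91 and 12.33 in lead brains, highest in control 1 and lowest in lead 2 on all 3 probes. Its difference was -0.23 ± 0.27, and 0.03 without control 1. On Zv7 chromosome 2 it is followed by the copies itgb1b.2 and itgb1b.1 within 39047568 to 39112248. Both copies, named here after their values were seen, were under background in every brain. The values of itgb1b.2 did not overlap all the same, at 7.31, 7.24 and 7.5 in controls and 7.10, 7.22 and 7.14 in lead brains. The array files do not say how far probes of such copies share sequence, and signal shared between the 3 copies was not tested.

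Matrix metalloproteinases lay both ways. Of 5 genes 3 lay higher and 2 lower in lead, with a median of 0.04. The median was 0.22 without control 1, -0.23 without lead 1 and 0.28 without lead 2. Gelatinase A (mmp2), made by fibroblasts and mural cells, measured 14.43, 13.86 and 13.17 in controls and 13.80, 13.24 and 13.52 in lead brains. Control 1 was highest on all 3 probes, the lead values lay within the range of the controls, and the difference of -0.30 ± 0.32 was 0.00 without control 1. Gelatinase B (mmp9), a product of neutrophils and activated glia, measured 10.78, 12.08 and 10.66 in controls and 12.89, 10.76 and 11.13 in lead brains. A different pair of brains was high here, control 2 and lead 1. Lead 1 was the highest brain on all 3 probes, and its target value was 3.50-fold over the mean of the others. The difference was 0.42 ± 0.62 (limma adjusted p = 0.969), with 0.22 without control 1 and -0.23 without lead 1. The membrane-bound mmp23bb lay near background, at 10.16, 10.40 and 10.28 in controls and 10.59, 9.83 and 10.52 in lead brains, a difference of 0.04 ± 0.22 that was -0.02 without control 1. The collagenase activator mmp14a, named here after its values were seen, was above background only in control 1, at 10.25 against 8.13 to 9.38, with a difference of -0.09 ± 0.51 that was 0.49 without it.

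The inhibitor timp2, which both blocks and helps to activate mmp2, varied little. It measured 13.51, 13.56 and 13.69 in controls and 13.46, 13.38 and 13.45 in lead brains. Every lead value lay below every control value, by little: the difference was -0.16 ± 0.12 (unadjusted p = 0.238, limma adjusted p = 0.958), and it lay between -0.20 and -0.10 when each brain in turn was left out, -0.20 without control 1.

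**Figure D4:**
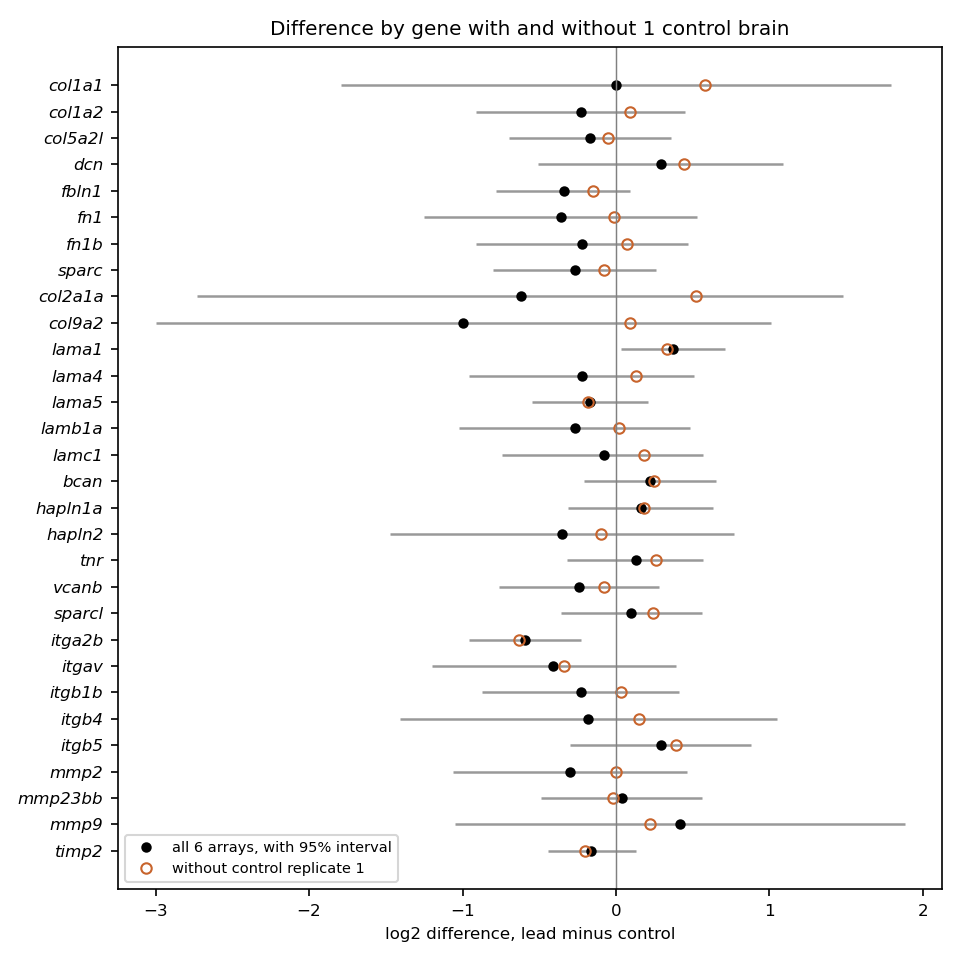
Difference of lead minus control on the log2 scale (horizontal axis) for 30 matrix genes chosen by a stated rule, black points with the 95% interval from all 6 arrays and open circles without control replicate 1. Intervals exclude 0 for lama1 and itga2b only. The open circle lies on the other side of 0 for col2a1a, col9a2, fn1b, lama4, lamb1a, lamc1 and others.

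Groups that did not overlap were found for 6 of 68 matrix targets (8 of the 73 that met the rule), against 9.49% of all targets. These were fbln1, 1 under-background target of sparc, lama1, itga2b, itgb1b.2 and timp2, with lama1 the only one higher in lead. Over all targets 5.74% had such groups with lead higher and 3.75% with lead lower. Of the 38 targets above background in every brain, 2 had such groups, fbln1 and timp2, and neither passed the test before adjustment. The low brain of a target was most often lead 2 or control 3. Lead 2 was lowest for 17 of 52 genes, against 16.2% of all targets. Control 3 was lowest for another 17 of the 52, among them 7 of 13 meningeal genes, against 20.7% of all targets.

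Outside the symbol rule, 35 of 122 listed genes of matrix synthesis, cross-linking and adhesion were measured under their symbols. Of these 13 lay higher and 22 lower in lead, with a median of -0.06 that was 0.05 without control replicate 1. In the limma fit 1 of 35 had an unadjusted p under 0.05, against 4.41% of all targets. This was thbs3a, a thrombospondin of bone and tendon in mammals, named here after its values were seen. It measured 9.59, 9.53 and 9.31 in controls and 9.95, 10.15 and 10.40 in lead brains. The groups did not overlap, but controls were under background in all 3 brains and lead 1 was too, so no fold is given. The difference of 0.69 ± 0.16 (unadjusted p = 0.00387) did not pass limma's adjusted threshold. Control 1 was the highest brain for 14 of the 35. Parts of the link from integrins to the cytoskeleton were divided. Talin (tln1) was 2.19-fold over the mean of the other 5 brains in control 1, and integrin-linked kinase (ilk) 1.73-fold. The genes parvb, pxna and lims1 were also highest there. By contrast, ptk2aa was highest in control 3 and lims2 in a lead brain, with control 1 at 1.09-fold and 1.01-fold. These genes of the link were named after their values were seen.

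A further 23 targets met the same letters in capitals, the form in which the files name a gene after its counterpart elsewhere. They did not follow control 1 as a set. COL15A1 measured 12.63 in control 1 and 10.43 to 11.41 elsewhere. The 2 targets of COL5A1 measured 12.12 and 12.69 in control 1 against 10.39 to 11.30 and 10.86 to 11.17. By contrast, ITGA2, MMP7, MMP16 (1 of 2), ADAMTS6 and ADAMTSL5 were lowest in control 1. One of the 23, ADAMTSL5, a protein related to matrix proteases without being one, had a limma unadjusted p under 0.05, against 4.41% of all targets. It measured 10.47, 10.86 and 10.52 in controls and 11.49, 10.91 and 10.94 in lead brains. Every lead value lay above every control value, and the difference was 0.50 ± 0.20 (unadjusted p = 0.0459), which did not pass limma's adjusted threshold. The difference was 0.42 without control 1 (limma unadjusted p = 0.122) and 0.31 without lead 1 (limma unadjusted p = 0.136). Targets named TIMP2 were divided. The target TIMP2 (1 of 3) varied little, from 15.12 to 15.21 in all 6 brains. Both targets of TIMP2 (3 of 3) above background were highest in control 1. They measured 13.41 there against 12.70 to 12.88 elsewhere, and 13.73 against 12.58 to 13.08. A further target of TIMP2 (3 of 3) was under background on every array. The genes given in capitals here were named after their values were seen.

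The 5 targets caught by letters only name no matrix gene. The target tnrc5, now cnpy3, a chaperone of toll-like receptors in mammals, measured 13.52, 13.61 and 13.41 in controls and 12.95, 12.83 and 13.20 in lead brains. All lead values were lower, on all 3 probes, with a difference of -0.52 ± 0.15 (unadjusted p = 0.00914, limma adjusted p = 0.958) that was -0.52 without control 1 too. With the median of the probes it was -0.42, at a limma unadjusted p of 0.0731. The target tnrc4, now celf3a, an RNA-binding protein of neurons, differed by -0.19 ± 0.20. Targets of itgb4bp4, now eif6, a ribosome assembly factor, differed by -0.01 ± 0.17, 0.12 ± 0.12 and 0.27 ± 0.12, the last with groups that did not overlap. Counting these with the matrix would add 1 of the 3 members with an unadjusted p under 0.05.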

How the data were processed

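Total RNA of 6 whole brains was labelled with Cy3 and hybridised to one-colour oligonucleotide arrays, per the labels' protocols. The authors deposited an intensity for each target on a linear scale, made with RMA per the submitters' processing notes, and probe intensities that share a median of 1194.71 on every array. Their table of 94 altered targets holds, per the file headers, a p-value, a log2 ratio and a signed fold score for each, with the test not given in it. The members, lists and tests were chosen with earlier results of these data known.

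The deposited intensities of 38489 targets were put on the log2 scale with no filter or added constant. Lead was compared with control by limma 3.58.1 in R 4.3.3 (lmFit and eBayes, two-sided). Adjusted p-values are those of Benjamini and Hochberg over the whole array, with 0.05 as the threshold. The script was tested on simulated data. Plots were drawn with matplotlib 3.10.9, and tables made with pandas 2.3.3 under Python 3.11.15. Of 3055 RefSeq targets 2663 matched the reference table, used for names only. Median target intensity per array was 2100.5 to 2211.5, and 59.8% to 66.7% of targets lay above the 95th percentile of 27114 random probes. Coordinates of targets on Zv7 are as in the files, and those of OTTDART targets belong to an assembly not given in the sources used here and are not printed. The number of brains limits the precision.

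The genes named were chosen by a rule per role list: any with an unadjusted p under 0.05, the smallest p-values, the highest means and the widest ranges among targets above background on at least 4 arrays, and any in the authors' table. A gene with several targets stands by the brightest. Genes outside the rule are marked as named after their values were seen, as are members of counts of 5 or fewer. File names place all 6 arrays in 1 scan image, controls and lead at separate numbered positions, so position and group cannot be told apart. Deviations of same-numbered replicates correlated at 0.306, 0.033 and -0.047 for numbers 1, 2 and 3. Those of differently numbered replicates ran from -0.226 to 0.239, so the pair of number 1 was the highest. These few values cannot settle whether the numbers pair the brains, and the main fit did not pair them. Alternatives were other scaling, the median of the probes, filters on dim targets, an ordinary test, the replicate block and each brain left out. Males were not analysed here.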

Additional observations from a re-analysis of the deposited data

How the results depend on the processing

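With 3 brains per group, 0 of the 33 named targets passed the adjusted threshold under any setting tried, and of their 413 values under other settings 381 kept their direction. Keeping only targets above the median target left 1 target of all kinds past the adjusted threshold and 978 at a limma unadjusted p under 0.05. Keeping those above the random probes on every array left 1072 of 21465 at that level. With no filter there were 1696 of 38489, or 4.41%. The filters leave fewer targets to test, so these smaller counts are not smaller shares. These filters left 4 and 4 members with groups that do not overlap, targets caught by letters only included. Of the 38 matrix targets above the random probes on every array, 2 had such groups. The share over all targets is not given for the filtered counts. The neural median was -0.13 and -0.13 under these filters, which left fewer genes. The ordinary test gave 5 of the 73 members at an unadjusted p under 0.05, targets caught by letters only included, against 4.30% of all targets. With the replicate number as a block 2035 targets of all kinds and 2 members had an unadjusted p under 0.05, and 0 passed adjustment. The median of the probes gave -0.23 for small leucine-rich proteoglycans, 0.04 for sparc, 0.51 for col1a2 and -0.22 for mmp23bb; the cause was not tested. Median centring gave 0.01 for col1a1 and 0.01 for itgb4bp4, and a repeated quantile normalization 0.00 for col1a1. When each brain in turn was left out, targets of all kinds at an unadjusted p under 0.05 ran from 1063 to 3098 (most without control 2, fewest without lead 1). Members whose groups do not overlap ran from 10 to 17 (most without control 1). With fewer brains, groups overlap less often, and the share over all targets is not given for these counts. The basement membrane median ran from -0.25 to 0.16 and the integrin median from -0.24 to 0.10. Differences that turned ran from -0.40 to 0.07 for fn1b, -0.41 to 0.13 for lama4, -0.47 to 0.02 for lamb1a, -0.26 to 0.18 for lamc1, -1.24 to 0.52 for col2a1a, -1.67 to 0.09 for col9a2, -0.41 to 0.03 for itgb1b, -0.69 to 0.29 for itgb4, -0.71 to 0.58 for col1a1, -0.51 to 0.09 for col1a2, -0.11 to 0.15 for itgb4bp4, -0.35 to 0.00 for tnrc4, -0.02 to 0.35 for hapln1a, -0.70 to 0.19 for hapln2, -0.01 to 0.26 for tnr, -0.63 to 0.00 for mmp2, -0.10 to 0.28 for mmp23bb and -0.23 to 0.87 for mmp9. Leaving out control 1 turned 12 of the 33, where 18 turned without 1 brain or another. Beyond the authors' value for itga2b, no fold between groups is given for genes near the random probes.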
